A study of Rattus norvegicus with 12 samples.

Results

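The genes described here carry the Hedgehog and parathyroid hormone-related protein (PTHrP) signals in cartilage. They were chosen by symbol, with earlier results of these data known. They are the ligand gene Ihh, the receptor gene Ptch1, the co-receptor gene Gas1, the signal transducer gene Smo, the transcription factor genes Gli1, Gli2 and Gli3, the PTHrP gene Pthlh and the PTHrP receptor gene Pth1r. Of these 9 genes, 8 had a row in the deposited table of 28546 genes, and Pthlh is not analysed here. Of the 8, 6 were expressed at 1 FPKM (fragments per kilobase of transcript, scaled to the reads of a library, a level that accounts for gene length) or more in at least 3 libraries and are among the 11373 genes tested. Ihh and Gli1 stayed under 1 FPKM in all 12 libraries.

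In the growth plate, Indian hedgehog (IHH) is secreted by prehypertrophic chondrocytes and raises the production of PTHrP near the joint surface, and PTHrP acting through PTH1R delays the entry of chondrocytes into hypertrophy. Hedgehog ligands bind PTCH1, helped by the co-receptors GAS1, CDON and BOC, and this frees SMO from inhibition. SMO acts in the primary cilium and shifts the GLI proteins from repressors to activators. GLI1, PTCH1 and HHIP are encoded by genes that the pathway itself switches on in many tissues, so that their RNA is commonly read as its output. PTH1R couples to a stimulatory G protein and raises cyclic AMP, and protein kinase A, the effector of cyclic AMP, favors the repressor forms of GLI2 and GLI3. The adenosine receptor A2AR couples to the same kind of G protein.

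RNA was measured in chondrocytes of knee cartilage from male Sprague Dawley rats, with 3 libraries in each of 4 groups. The Lipo-CGS, Lipo and Saline knees had post-traumatic osteoarthritis from rupture of the anterior cruciate ligament by a single load of tibial compression, and from 4 weeks later they received 100 µl injections into the joint every 10 days for 8 weeks. Lipo-CGS injections held liposomes with CGS21680, a selective A2AR agonist, Lipo injections held empty liposomes and Saline injections held saline only. Uninvolved knees are described only by that name in the labels, and the age of the rats is not given in the sources used here. Comparing Lipo-CGS with Lipo asks what the drug adds to the liposome, whereas any comparison with Uninvolved knees holds injury and injection together, which cannot be told apart. Cartilage of 3 rats was pooled for each library, while the methods give 5 to 6 rats per group, so libraries of a group may share rats. The p-values therefore measure the spread between these libraries only. The cells were cultured after enzymatic release, for a time that is not given in the sources used here.

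Each library had 10858 to 11109 genes at 1 FPKM or more, and the median correlation of a library with the others of its group ranged from 0.979 in Saline replicate 3 to 0.992. All 10 chondrocyte markers reached 1 FPKM in at least 1 library, and their levels summed to 12039 to 17652 FPKM in Lipo-CGS, 9623 to 15445 in Lipo, 5920 to 10802 in Saline and 9313 to 10446 in Uninvolved. Col2a1 made most of these sums, with group means of 6093 FPKM in Saline to 10972.5 in Lipo-CGS. By the rule given below, 4 of the 10 were called higher and 1 lower in Lipo against Uninvolved, beside 14.1% and 16.3% of all tested genes. In Lipo-CGS against Uninvolved these were 4 and 0, beside 11.7% and 14.0%. Prg4 averaged 383 FPKM in Lipo-CGS, 232 in Lipo, 546 in Saline and 506 in Uninvolved. The 10 fibroblast or synovial lining markers summed to 183 to 236 FPKM in Lipo-CGS, 245 to 278 in Lipo, 102 to 212 in Saline and 90.6 to 107 in Uninvolved, with Tcf21 at 0 in all 12 libraries and 4 of the 10 under 1 FPKM throughout. Leukocyte markers summed to 26.5 to 36.4 FPKM in Lipo-CGS, 22.8 to 26.0 in Lipo, 46.4 to 54.5 in Saline and 44.6 to 70.2 in Uninvolved, with Cd3e at 0 throughout. Cd14 made most of these sums, with group means of 21.7 to 46.6 FPKM, while Ptprc did not exceed 0.09 FPKM. Osteoblast markers summed to 21.8 to 29.8 FPKM in Lipo-CGS, 41.0 to 93.9 in Lipo, 47.3 to 104 in Saline and 92.5 to 125 in Uninvolved, with 5 of 6 under 1 FPKM in all libraries. All 5 endothelial markers stayed under 1 FPKM, and the smooth muscle and pericyte sums of 88.0 to 106 FPKM in Lipo-CGS, 92.9 to 112 in Lipo, 92.0 to 104 in Saline and 93.9 to 104 in Uninvolved overlapped. Cspg4 made most of these sums, with group means of 82.0 to 94.4 FPKM. Des averaged 0.95 FPKM in Lipo-CGS, 1.04 in Lipo, 3.10 in Saline and 2.99 in Uninvolved, and Mcam 11.5, 7.58, 9.67 and 12.4. The part of such cells in the results below was not tested. In pooled tissue of this kind, fewer cells of a type and less RNA per cell cannot be told apart.

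The transcription factor genes Gli2 and Gli3 were higher in both liposome groups than in either Uninvolved or Saline knees, and the co-receptor gene Gas1 was higher in Lipo-CGS than in both. No gene of the 6 was called lower in any comparison. A call needed both a difference over 1.5-fold and an adjusted p below 0.05, with limma on log2(FPKM + 0.5) and Benjamini-Hochberg adjustment over all tested genes. In Lipo against Uninvolved knees 2 of the 6 genes were called higher and 0 lower, where calls covered 14.1% of all tested genes as higher and 16.3% as lower. In Lipo-CGS against Uninvolved knees 3 were called higher and 0 lower, where they covered 11.7% as higher and 14.0% as lower. In Lipo against Saline 2 were called higher, against 10.6% of all genes called higher and 12.3% lower. In Lipo-CGS against Saline 3 were called higher, against 8.23% of all genes called higher and 10.3% lower. These 4 comparisons share libraries and are not independent of each other. The genes were chosen with earlier results of these data known, so the counts describe them and test nothing about the set.

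Between Lipo-CGS and Lipo, limma called 0 of the 6 genes, while 0.0791% of all tested genes were called higher and 0.0879% lower. Of the 6 genes 1, Gas1, had an unadjusted p under 0.05, as had 2087 of all tested genes. Between Saline and Uninvolved knees limma called 0 of the 6 genes and 0% of all genes in either direction, with 0 of the 6 and 566 of all genes at an unadjusted p under 0.05. The median log2 fold change of the 6 genes was 0.12 in Lipo-CGS against Lipo, 0.31 in Lipo against Uninvolved, 0.61 in Lipo-CGS against Uninvolved and -0.01 in Saline against Uninvolved. The medians over all tested genes in these comparisons lay between -0.01 and 0.01.

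**Figure D1:**
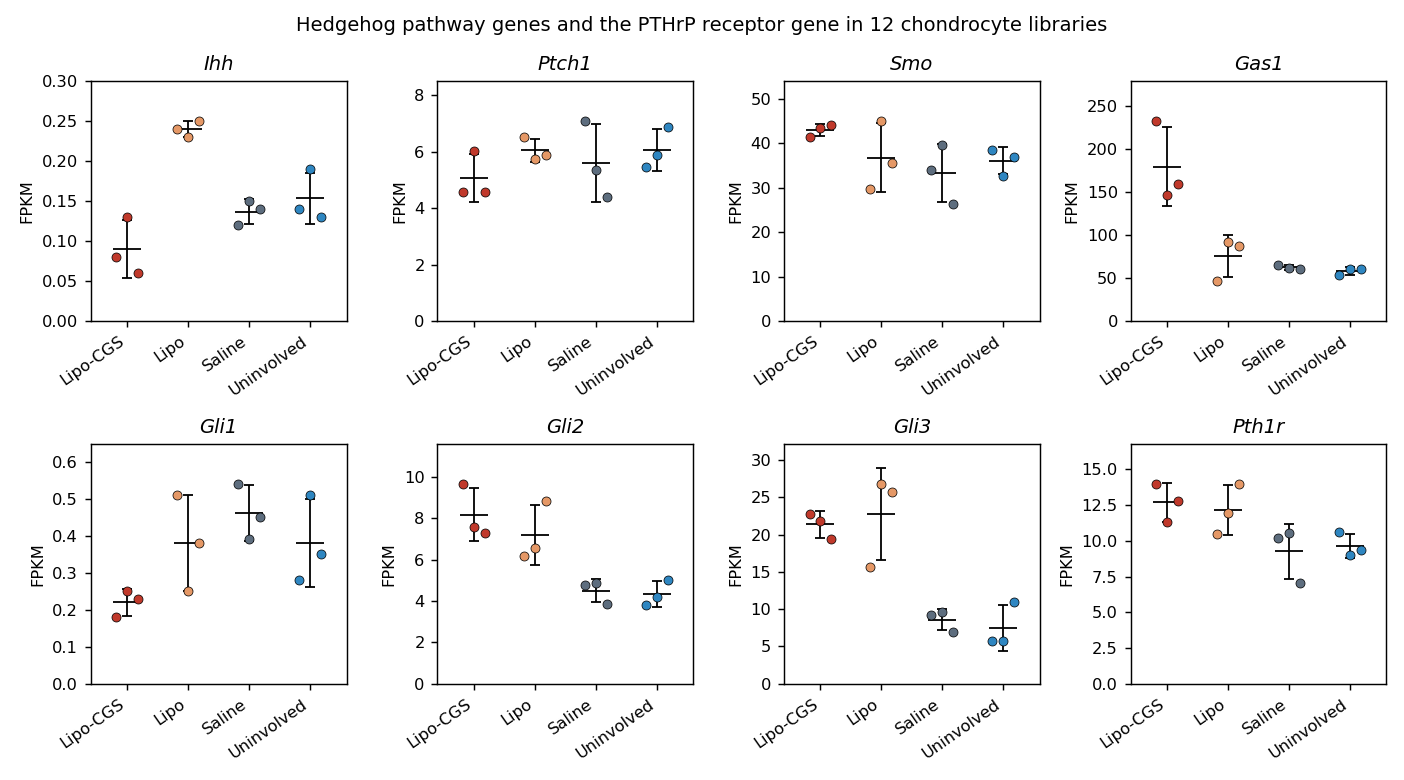
FPKM of the 8 genes with a row in the table, 1 panel per gene, for the 4 groups on the horizontal axis. Points are the 3 libraries of a group, with the mean and SD as bars. Gas1 stands at 147 to 232 FPKM in Lipo-CGS and at no more than 91.8 FPKM elsewhere, and Gli3 at 15.7 FPKM or more in both liposome groups and at no more than 11.0 FPKM in Saline and Uninvolved.

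The ligand gene Ihh was close to the limit of the table. Its levels were 0.08, 0.13 and 0.06 FPKM in Lipo-CGS, 0.24, 0.23 and 0.25 in Lipo, 0.12, 0.15 and 0.14 in Saline and 0.14, 0.19 and 0.13 in Uninvolved knees. The 3 Lipo libraries lay above all others, and the other groups overlapped or met. In a fit without the filter, over 18964 genes, the log2 fold change of Ihh was -0.33 in Lipo-CGS against Lipo (limma, adjusted p = 0.0524), 0.22 in Lipo against Saline (adjusted p = 0.0128) and 0.18 in Lipo against Uninvolved (adjusted p = 0.0224), all short of 1.5-fold on the log2(FPKM + 0.5) scale, which understates changes at such levels. Of the other Hedgehog ligand genes, Shh was listed at 0 in all 12 libraries and Dhh at 0 to 0.06 FPKM.

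Ptch1, which encodes the receptor and is itself a target of the pathway, differed little. Its levels were 4.59, 6.04 and 4.59 FPKM in Lipo-CGS, 6.51, 5.75 and 5.89 in Lipo, 7.09, 5.36 and 4.38 in Saline and 5.45, 5.87 and 6.87 in Uninvolved knees. All 4 groups overlapped. The log2 fold change was -0.24 in Lipo-CGS against Lipo (95% interval -0.59 to 0.11, limma, adjusted p = 0.448), 0.00 in Lipo against Uninvolved (-0.35 to 0.35, adjusted p = 0.996) and -0.12 in Saline against Uninvolved (-0.47 to 0.23, adjusted p = 0.867). The promoter of Ptch1 is shown because the gene serves as a readout of GLI activity. Its 300 bases run from 250 before to 50 after the annotated start, chr17:1555321-1555620 on the plus strand of GRCr8, a later build than the one the reads were aligned to, and are given 5′ to 3′ from RefSeq, with capitals for the motif CCACCC, the core of the GLI site, on either strand and for the longer GLI site GACCACCCA.

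Ptch1: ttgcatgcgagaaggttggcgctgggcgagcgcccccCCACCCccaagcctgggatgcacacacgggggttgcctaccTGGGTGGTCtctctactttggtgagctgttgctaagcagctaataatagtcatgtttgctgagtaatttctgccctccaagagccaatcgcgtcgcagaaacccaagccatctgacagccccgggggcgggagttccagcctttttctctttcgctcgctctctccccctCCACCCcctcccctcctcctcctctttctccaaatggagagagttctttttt

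The longer motif GACCACCCA occurred once, on the minus strand from position -172, and overlaps 1 of the 3 matches to CCACCC. Of 33469 rat promoters of the same length, 0.385% held GACCACCCA and 29.4% held CCACCC on either strand. A match is a description of the letters only.

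Gas1, a membrane-anchored co-receptor that helps Hedgehog ligands reach PTCH1, was the member that set Lipo-CGS apart. Its levels were 232, 147 and 159 FPKM in Lipo-CGS, 47.1, 91.8 and 87.5 in Lipo, 65.6, 61.9 and 60.2 in Saline and 53.0, 60.7 and 61.0 in Uninvolved knees. Every Lipo-CGS library lay above every other library, whereas the Lipo libraries spread across the Saline and Uninvolved ranges, 1 below and 2 above them. The means were 179.5 ± 46.3 FPKM in Lipo-CGS, 75.5 ± 24.7 in Lipo, 62.6 ± 2.78 in Saline and 58.3 ± 4.53 in Uninvolved (SD, n = 3 each).

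Against Uninvolved knees Gas1 was 3.01-fold higher in Lipo-CGS (log2 fold change 1.59 ± 0.23 SE, limma, adjusted p = 0.000440) and against Saline 2.80-fold higher (1.48 ± 0.23, adjusted p = 0.00101). Against Lipo the difference was 2.42-fold (log2 fold change 1.28 ± 0.23, 95% interval 0.77 to 1.78) with an unadjusted p of 0.000139 and an adjusted p of 0.0607, so that it was not called. It was called without Lipo replicate 2 (1.45, adjusted p = 0.0422), without Saline replicate 3 (1.28, adjusted p = 0.040) or without Uninvolved replicate 3 (1.28, adjusted p = 0.0460), and with library weights (1.21, adjusted p = 0.0199), and over all settings tried its adjusted p ranged from 0.0199 to 0.279. Gas1 in Lipo against Uninvolved knees gave 0.31 on the log2 scale (adjusted p = 0.266), and it was called only without Lipo replicate 1 (0.62, adjusted p = 0.00993).

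The other co-receptor genes, Cdon and Boc, had their highest means in the same group. Cdon stood at 81.8, 73.8 and 75.3 FPKM in Lipo-CGS, 44.2, 59.7 and 66.0 in Lipo, 46.4, 39.9 and 30.6 in Saline and 32.4, 31.6 and 48.2 in Uninvolved knees. The Lipo-CGS libraries lay above all others, and the Lipo libraries overlapped those of both other groups. The log2 fold change of Cdon was 1.06 in Lipo-CGS against Uninvolved (limma, adjusted p = 0.00140), 0.99 in Lipo-CGS against Saline (adjusted p = 0.00294) and 0.46 in Lipo-CGS against Lipo (adjusted p = 0.241, not called). Set against Uninvolved, Lipo gave 0.60 (adjusted p = 0.0212), a call lost without Lipo replicate 2 (0.55, adjusted p = 0.0619), Lipo replicate 3 (0.48, 0.0870), Uninvolved replicate 1 (0.51, 0.0797) or Uninvolved replicate 2 (0.49, 0.0857).

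Boc stood at 79.8, 64.5 and 63.8 FPKM in Lipo-CGS, 48.6, 63.5 and 70.6 in Lipo, 47.8, 50.5 and 43.2 in Saline and 37.1, 42.2 and 46.9 in Uninvolved knees. Its Lipo-CGS libraries were above all Saline and Uninvolved libraries but overlapped those of Lipo. The log2 fold change was 0.71 in Lipo-CGS against Uninvolved (limma, adjusted p = 0.00222, called) and 0.20 in Lipo-CGS against Lipo (adjusted p = 0.494). For Lipo against Uninvolved it was 0.52 (adjusted p = 0.0100), under 1.5-fold, and passed it without Lipo replicate 1 (0.67) or Uninvolved replicate 3 (0.60). In Lipo-CGS against Saline it was 0.55 (adjusted p = 0.0120), and passed 1.5-fold without Lipo-CGS replicate 2 (0.60), Lipo-CGS replicate 3 (0.60) or Saline replicate 2 (0.60).

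**Figure D2:**
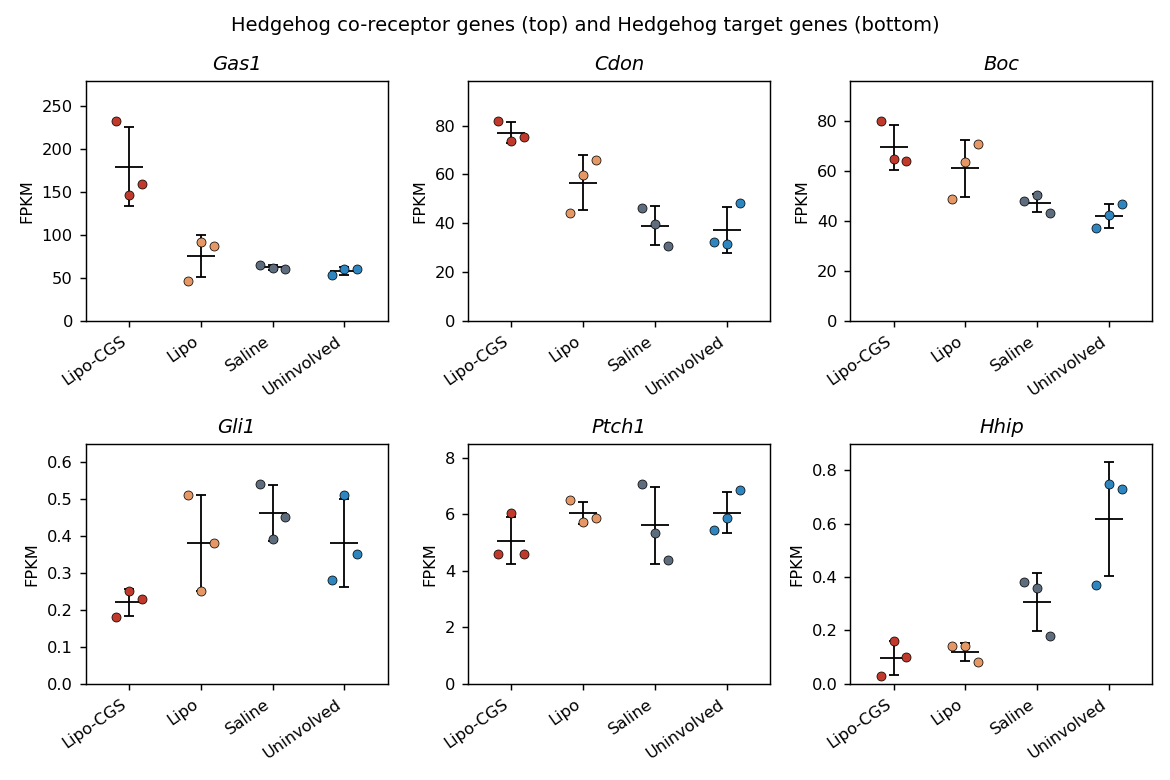
FPKM of the 3 Hedgehog co-receptor genes (upper row) and of 3 Hedgehog target genes (lower row) in the 4 groups, with the 3 libraries of each group as points and the mean and SD as bars. The co-receptor genes have their highest means in Lipo-CGS, while Gli1 and Ptch1 have their lowest means there and Hhip is at 0.16 FPKM or less in both liposome groups.

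Smo, which encodes the membrane protein that PTCH1 holds inactive, was expressed at similar levels throughout. Its levels were 41.3, 43.4 and 44.0 FPKM in Lipo-CGS, 29.7, 45.0 and 35.5 in Lipo, 33.9, 39.5 and 26.4 in Saline and 38.5, 32.6 and 37.0 in Uninvolved knees. The Lipo-CGS libraries lay closest together and above those of Saline and Uninvolved, but within the range of Lipo. The log2 fold change was 0.24 in Lipo-CGS against Lipo (95% interval -0.11 to 0.59, limma, adjusted p = 0.444), 0.38 in Lipo-CGS against Saline (0.03 to 0.73, adjusted p = 0.0755) and 0.25 in Lipo-CGS against Uninvolved (-0.10 to 0.60, adjusted p = 0.205). None of these was called.

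Gli2 encodes the main activator and Gli3 the main repressor among the GLI proteins, and their RNAs were higher together in the liposome groups. Gli2 stood at 9.66, 7.56 and 7.29 FPKM in Lipo-CGS, 6.19, 6.55 and 8.85 in Lipo, 4.77, 4.88 and 3.85 in Saline and 3.82, 4.17 and 5.01 in Uninvolved knees. All 6 liposome libraries lay above all 6 others, and the Lipo-CGS and Lipo libraries overlapped. Against Uninvolved knees the log2 fold change of Gli2 was 0.84 ± 0.16 SE in Lipo-CGS (1.79-fold, limma, adjusted p = 0.00152) and 0.66 ± 0.16 in Lipo (1.58-fold, adjusted p = 0.00424). Against Saline it was 0.79 ± 0.16 in Lipo-CGS (adjusted p = 0.00315) and 0.61 ± 0.16 in Lipo (adjusted p = 0.00860).

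The 2 calls of Gli2 in Lipo rested on a fold change close to 1.5. Against Uninvolved the call was lost without Lipo replicate 3 (log2 fold change 0.51, limma, adjusted p = 0.0197). Against Saline it was lost without Lipo replicate 3 (0.46, adjusted p = 0.0378), without Saline replicate 3 (0.52, adjusted p = 0.0337), with a pseudocount of 1 (0.57) and with library weights (0.56). Between Lipo-CGS and Lipo the log2 fold change of Gli2 was 0.18 (95% interval -0.17 to 0.52, adjusted p = 0.576).

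Gli3 was also higher in the liposome groups, by a wider gap. It stood at 22.8, 21.9 and 19.4 FPKM in Lipo-CGS, 15.7, 26.8 and 25.8 in Lipo, 9.24, 9.56 and 7.0 in Saline and 5.72, 5.69 and 11.0 in Uninvolved knees. The liposome libraries lay above the others without overlap, and Uninvolved replicate 3 was the highest of the other 6. Against Uninvolved knees Gli3 was 2.86-fold higher in Lipo-CGS (log2 fold change 1.52 ± 0.25 SE, limma, adjusted p = 0.000806) and 2.97-fold higher in Lipo (1.57 ± 0.25, adjusted p = 0.000449). Against Saline it was 2.42-fold higher in Lipo-CGS (1.27 ± 0.25, adjusted p = 0.00292) and 2.51-fold higher in Lipo (1.33 ± 0.25, adjusted p = 0.00181). Lipo-CGS and Lipo did not differ beyond their spread (-0.05, 95% interval -0.60 to 0.49, adjusted p = 0.929). The summed fibroblast markers were also higher in both liposome groups than in Uninvolved knees. Against Uninvolved, 3 of 6 tested markers were called higher in Lipo and 2 of 6 in Lipo-CGS, beside 14.1% and 11.7% of all tested genes. Against Saline these were 2 of 6 and 1 of 6, beside 10.6% and 8.23%, and the sums of Lipo-CGS and Saline overlapped. No marker was called lower, but Cd55 had lower means in Lipo-CGS (1.54 FPKM) and Lipo (1.49) than in Saline (2.68) or Uninvolved (1.99). The part of fibroblasts in the levels of Gli3 was not tested.

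The promoters of Gli2 and Gli3 are shown because these 2 genes were higher in the same libraries. They are 300 bases each from RefSeq in GRCr8, chr13:32716369-32716668 for Gli2 and chr17:54405149-54405448 for Gli3, both read on the minus strand, 5′ to 3′ from 250 bases before the start, with capitals for CCACCC on either strand.

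Gli2: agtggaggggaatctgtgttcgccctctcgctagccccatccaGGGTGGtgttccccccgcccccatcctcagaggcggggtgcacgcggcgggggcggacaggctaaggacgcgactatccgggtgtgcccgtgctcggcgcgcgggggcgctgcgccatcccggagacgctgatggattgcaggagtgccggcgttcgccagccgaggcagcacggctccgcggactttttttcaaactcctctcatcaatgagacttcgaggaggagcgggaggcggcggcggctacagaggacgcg

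Gli3: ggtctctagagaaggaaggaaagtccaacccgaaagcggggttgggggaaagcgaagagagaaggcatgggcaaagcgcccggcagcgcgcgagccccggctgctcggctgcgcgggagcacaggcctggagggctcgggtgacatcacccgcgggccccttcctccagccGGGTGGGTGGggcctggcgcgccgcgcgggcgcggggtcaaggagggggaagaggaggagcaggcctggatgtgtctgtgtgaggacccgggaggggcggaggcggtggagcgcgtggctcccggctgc

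Both were rich in G and C, with 68.3% in Gli2 and 72.0% in Gli3, against a median of 51.7% over 33469 promoters. Gli2 held 34 CpG pairs and Gli3 29, against a median of 7. CCACCC occurred once in Gli2 and at 2 overlapping places in Gli3, on the minus strand in both. The GC box GGGCGG, found in 33.1% of all promoters on either strand, occurred at 2 places in Gli2 and 1 in Gli3. Neither held the cyclic AMP response element TGACGTCA or its part TGACG, found in 1.83% and 21.2% of all promoters, nor did those of Ptch1 and Smo, while that of Pth1r held TGACG once.

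Gli1, the transcription factor gene that most directly follows pathway activity, was under 1 FPKM throughout. Its levels were 0.18, 0.25 and 0.23 FPKM in Lipo-CGS, 0.51, 0.25 and 0.38 in Lipo, 0.54, 0.39 and 0.45 in Saline and 0.28, 0.51 and 0.35 in Uninvolved knees. The Lipo-CGS libraries lay below those of Saline and Uninvolved, and met the Lipo range at 0.25 FPKM. In the fit without a filter the log2 fold change was -0.41 in Lipo-CGS against Saline (limma, adjusted p = 0.0390), -0.28 in Lipo-CGS against Uninvolved (adjusted p = 0.120) and -0.28 in Lipo-CGS against Lipo (adjusted p = 0.362), none past 1.5-fold. The textbook target Hhip, the gene of a decoy receptor, stood at 0.03, 0.16 and 0.10 FPKM in Lipo-CGS, 0.14, 0.14 and 0.08 in Lipo, 0.38, 0.36 and 0.18 in Saline and 0.37, 0.75 and 0.73 in Uninvolved knees, so that both liposome groups lay below the others, and it was under the filter.

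Of the PTHrP arm, only the receptor gene is described. Pth1r stood at 14.0, 11.3 and 12.8 FPKM in Lipo-CGS, 10.5, 11.97 and 14.0 in Lipo, 10.2, 10.5 and 7.07 in Saline and 10.6, 8.99 and 9.33 in Uninvolved knees. The Lipo-CGS libraries were above those of Saline and Uninvolved, by a narrow margin, and overlapped those of Lipo. In Lipo-CGS against Saline the log2 fold change was 0.45 (95% interval 0.12 to 0.78, limma, adjusted p = 0.0359), a 1.37-fold difference that falls short of 1.5-fold and was not called. It was 0.38 in Lipo-CGS against Uninvolved (adjusted p = 0.0577), 0.31 in Lipo against Uninvolved (adjusted p = 0.0998) and 0.06 in Lipo-CGS against Lipo (-0.27 to 0.40, adjusted p = 0.856). The gene of the related receptor Pth2r was at 0.08 FPKM or less. Pth, the gene of parathyroid hormone, was listed at 0 in 11 libraries and at 0.04 FPKM in 1, and the ligand gene Pth2 at 0 in all 12.

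**Figure D3:**
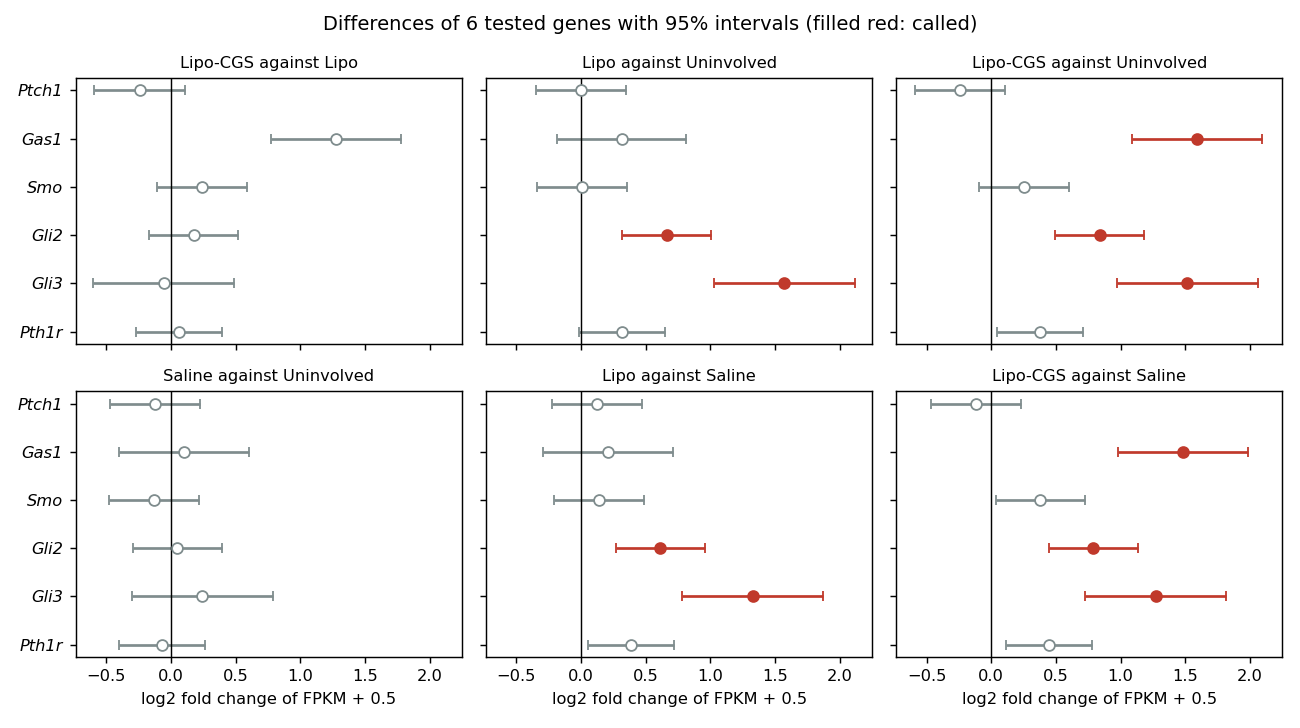
Log2 fold change of FPKM + 0.5 for the 6 tested genes in each of the 6 comparisons, first-named group over second, with 95% intervals as bars and called genes in filled red. Gas1 is at 1.28 in Lipo-CGS against Lipo with an open symbol, Gli2 and Gli3 are called in each liposome group against Uninvolved and Saline, and every interval spans 0 in Saline against Uninvolved.

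No member differed between Saline and Uninvolved knees beyond the spread of the libraries. The log2 fold changes ran from -0.13 for Smo to 0.24 for Gli3, with adjusted p from 0.838 to 0.944 (limma). The interval of Gli3, -0.30 to 0.79, was the widest. For Gas1 it was -0.40 to 0.61 and for Gli2 -0.29 to 0.39.

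Around these members, 6 lists of pathway genes were counted, with calls in Lipo-CGS against Lipo, Lipo against Uninvolved and Lipo-CGS against Uninvolved. For Lipo and Lipo-CGS against Saline, only the counts of calls are given. In Lipo-CGS against Lipo limma called 0 genes of any list, where only 0.0791% of all tested genes were called higher and 0.0879% lower. Against Uninvolved knees 46 calls were made over the lists, counting Lipo and Lipo-CGS together. Of these, 31 held in every setting in which the gene was tested, and 15 ended in at least 1. The lists held 6, 16, 15, 9, 17 and 10 tested genes, in the order described below, with Nkx3-2 listed more than once. Beside this, calls over the whole tested set reached 14.1% upward and 16.3% downward for Lipo, and 11.7% and 14.0% for Lipo-CGS. The count of 46 is thus a description and was not tested against these shares. Of 13 genes for Hedgehog ligands, receptors and binding proteins, 6 were tested. Against Uninvolved, in Lipo 1 was called higher (Cdon) and 1 lower, Scube3, a secreted protein gene (log2 fold change -0.83, limma, adjusted p = 0.00404). Scube3 was at 0.48 to 0.55 FPKM in Lipo, 0.60 to 0.91 in Lipo-CGS, 1.24 to 1.49 in Saline and 0.84 to 1.87 in Uninvolved. It passed the filter only through Saline and Uninvolved libraries, where it was high, so its call is a description only. In Lipo-CGS against Uninvolved 2 were called higher, Cdon and Boc, and 0 lower. The related gene Scube2, which helps release of the ligand, was under the filter at 0.27 to 0.43 FPKM in Lipo-CGS, 0.35 to 0.54 in Lipo, 0.14 to 0.19 in Saline and 0.04 to 0.09 in Uninvolved. The ligand-binding genes Gpc3 and Lrp2 did not exceed 0.03 FPKM. Against Saline, 0 of the 6 were called higher and 1 lower in Lipo, beside 10.6% and 12.3% of all tested genes. In Lipo-CGS against Saline 1 was called higher and 0 lower, beside 8.23% and 10.3%.

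All 16 intracellular regulators of the pathway were tested, and none was called lower. In Lipo against Uninvolved 4 were called higher, with a list median of 0.30 on the log2 scale. Of all tested genes, 14.1% were called higher there and 16.3% lower. Prkacb, a catalytic subunit of protein kinase A, had a log2 fold change of 1.08 (limma, adjusted p = 0.00245), Tulp3, which brings receptors into the cilium, 0.97 (adjusted p = 0.00132), Gpr161, a ciliary receptor that keeps the pathway off, 0.83 (adjusted p = 0.000852) and the kinase gene Stk36 0.60 (adjusted p = 0.00352). The call of Stk36 was lost without Lipo replicate 1 (0.56), Lipo replicate 3 (0.51) or Uninvolved replicate 1 (0.52) and when the pseudocount was 1 (0.50). In Lipo-CGS against Uninvolved 3 were called higher, with a median of 0.30, Prkacb at 0.93 (adjusted p = 0.00702), Tulp3 at 0.82 (adjusted p = 0.00439) and Evc2, a ciliary partner of SMO, at 0.61 (adjusted p = 0.000860), the last of which fell under 1.5-fold with a pseudocount of 1 (0.58) or without Lipo-CGS replicate 1 (0.53). Against Saline, 3 of the 16 were called higher in Lipo, beside 10.6% of all tested genes, and 0 in Lipo-CGS, beside 8.23%. Sufu, the gene of the main cytoplasmic inhibitor of GLI, averaged 4.14 ± 0.460 FPKM in Lipo-CGS, 4.71 ± 0.621 in Lipo, 4.39 ± 0.382 in Saline and 3.87 ± 0.401 in Uninvolved (SD, n = 3 each).

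In Lipo against Uninvolved, 14.1% of all tested genes were called higher and 16.3% lower. Of 15 genes for transport in the primary cilium, all tested, 1 was called higher there and 2 lower, with a median of 0.03. These were the ciliary dynein gene Dync2h1 at 0.84 (limma, adjusted p = 0.000660) and the intraflagellar transport genes Ift57 at -0.74 (adjusted p = 0.00109) and Ift20 at -0.62 (adjusted p = 0.00863). The call of Ift20 was lost without Lipo replicate 3 (-0.56), Uninvolved replicate 1 (-0.44) or Uninvolved replicate 2 (-0.58). In Lipo-CGS against Uninvolved 1 was called lower, Ift57 at -0.62 (adjusted p = 0.00370), and the call was lost without Uninvolved replicate 1 (-0.49) or replicate 2 (-0.58). Of all tested genes, 14.0% were called lower in that comparison. Against Saline, 1 of the 15 was called higher and 1 lower in Lipo, beside 10.6% and 12.3% of all tested genes. In Lipo-CGS against Saline 0 were called in either direction, beside 8.23% higher and 10.3% lower.

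The target list named 15 genes, of which 14 had a row and 9 were tested. Its median log2 fold change was -0.25 in Lipo against Uninvolved and -0.22 in Lipo-CGS against Uninvolved. Ccnd1, the gene of cyclin D1, which many other signals also control, was at 31.8 to 53.5 FPKM in Lipo-CGS, 64.9 to 122 in Lipo, 108 to 180 in Saline and 129 to 154 in Uninvolved. It was called lower in Lipo-CGS against Uninvolved (-1.83, limma, adjusted p = 0.000383), gave -1.11 in Lipo-CGS against Lipo (adjusted p = 0.0789, not called) and was called lower in Lipo against Uninvolved (-0.73, adjusted p = 0.0311). The last call was lost without the filter (adjusted p = 0.0632) and without Lipo replicate 2 (-0.65), Lipo replicate 3 (-0.54), Uninvolved replicate 1 (-0.66) or Uninvolved replicate 2 (-0.74). Ccnd2, the gene of cyclin D2, was called higher in Lipo against Uninvolved at 0.93 (adjusted p = 0.0187), a call lost without Lipo replicate 2 (0.81), Uninvolved replicate 1 (0.73) or Uninvolved replicate 2 (0.79). Bcl2, which blocks apoptosis, was called higher in Lipo-CGS against Uninvolved at 0.66 (adjusted p = 0.0166), a call lost when the pseudocount was 1 (0.55) and without Lipo-CGS replicate 1 (0.57), Uninvolved replicate 1 (0.57) or Uninvolved replicate 2 (0.53). Against Saline, 0 of the 9 were called in Lipo, beside 10.6% of all tested genes higher and 12.3% lower. In Lipo-CGS against Saline 1 was called higher and 2 lower, beside 8.23% and 10.3%.

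For signaling by the PTH receptors, 20 genes were listed, with ligands, receptors and receptor partners included, and 17 were tested. In Lipo against Uninvolved 7 were called higher and 3 lower, with a median of 0.40, beside 14.1% and 16.3% of all tested genes. The higher ones were the G protein gene Gnaq (1.13, limma, adjusted p = 0.000925), the adenylyl cyclase genes Adcy7 (0.98, 0.000138), Adcy9 (0.97, 0.000914) and Adcy6 (0.67, 0.000425), the phospholipase gene Plcb1 (0.71, 0.0274) and 2 genes of repressors of hypertrophy, Zfp521 (0.82, 0.000521) and Hdac4 (0.67, 0.000829). The lower ones were Gnas, the gene of the stimulatory G protein (-0.77, 0.00335), Ramp2, which encodes a partner of this receptor family (-1.27, 0.000165), and the kinase gene Sik1, itself switched on by cyclic AMP (-0.97, 0.00176). The call of Plcb1 was lost without the filter (adjusted p = 0.0575), in a fit of the 2 groups alone (adjusted p = 0.0647) and without Lipo replicate 2 (0.58), Lipo replicate 3 (0.60), Uninvolved replicate 1 (0.65) or Uninvolved replicate 2 (0.52), and that of Hdac4 with a pseudocount of 1 (0.58).

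In Lipo-CGS against Uninvolved 4 of the 17 were called higher and 3 lower, beside 11.7% and 14.0% of all tested genes. The list median was 0.35. Adcy7 was at 0.97 (limma, adjusted p = 0.000193), Plcb1 at 0.78 (0.0207), Zfp521 at 0.68 (0.00189) and Hdac4 at 0.64 (0.00147), and Ramp2 at -1.43 (0.000147), Sik1 at -1.39 (0.000402) and Gnas at -0.59 (0.0157). Ramp2 stood at 11.1 to 13.8 FPKM in Lipo-CGS, 13.8 to 14.6 in Lipo, 24.8 to 28.1 in Saline and 26.6 to 46.3 in Uninvolved, so that the liposome libraries did not overlap the others. The call of Plcb1 was lost without Lipo-CGS replicate 1 (adjusted p = 0.0523), Lipo-CGS replicate 2 (0.0524), Uninvolved replicate 1 (0.0693) or Uninvolved replicate 2 (0.0913). That of Hdac4 was lost with a pseudocount of 1 (0.56) or without Uninvolved replicate 2 (0.57). That of Gnas was lost with median-of-ratios scaling (-0.57) and without Lipo-CGS replicate 2 (-0.56), Lipo-CGS replicate 3 (-0.58), Uninvolved replicate 1 (-0.41) or Uninvolved replicate 2 (-0.54). Against Saline, 4 of the 17 were called higher and 2 lower in Lipo, beside 10.6% and 12.3% of all tested genes. In Lipo-CGS against Saline 1 was called higher and 2 lower, beside 8.23% and 10.3%.

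Of 12 genes of hypertrophic differentiation, the step that PTHrP delays, 10 were tested. The median log2 fold change was -0.42 in Lipo-CGS against Lipo, -0.29 in Lipo against Uninvolved and -0.74 in Lipo-CGS against Uninvolved. In Lipo-CGS against Lipo, Ibsp was at -1.13 (limma, adjusted p = 0.131) and Alpl at -0.96 (0.107). Vegfa went the other way at 0.90 (adjusted p = 0.0713), with every Lipo-CGS library above every Lipo library, as did Mmp13 at 0.22 (0.827). None of these was called there. In Lipo-CGS against Uninvolved 5 were called lower and 1 higher, beside 14.0% and 11.7% of all tested genes. The mineral-associated genes Ibsp (-2.15, limma, adjusted p = 0.000735), Spp1 (-2.03, 0.000761), Phospho1 (-1.59, 0.000237) and Alpl (-0.95, 0.0125) and the hypertrophic collagen gene Col10a1 (-1.20, 0.0127) were lower, and the collagenase gene Mmp13 was higher (2.93, 0.000598). The call of Alpl was lost without Lipo-CGS replicate 2 (-0.70, adjusted p = 0.0534). Ibsp is also one of the osteoblast markers whose sums are given above, and the other 5 were under 1 FPKM.

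In Lipo against Uninvolved 3 of the 10 were called lower, Phospho1 (-1.51, limma, adjusted p = 0.000203), Spp1 (-1.38, 0.00439) and Ibsp (-1.02, 0.0259), and Mmp13 was called higher (2.71, 0.000564). Of all tested genes, 16.3% were called lower there and 14.1% higher. The call of Ibsp was lost without the filter (adjusted p = 0.0557), with library weights (0.0522) and without Lipo replicate 1 (0.0940), Lipo replicate 3 (0.0937), Uninvolved replicate 1 (0.0760) or Uninvolved replicate 3 (0.0653). Mmp13 stood at 11.9 to 18.6 FPKM in Lipo-CGS, 10.2 to 13.5 in Lipo, 1.15 to 8.70 in Saline and 1.16 to 1.66 in Uninvolved, with no overlap between the liposome groups and the others. Col10a1 stood at 38.5 to 41.7 FPKM in Lipo-CGS, 40.6 to 89.5 in Lipo, 45.7 to 84.6 in Saline and 67.7 to 141 in Uninvolved, so that Lipo-CGS overlapped Lipo. Against Saline, 1 of the 10 was called higher and 3 lower in Lipo, beside 10.6% and 12.3% of all tested genes. In Lipo-CGS against Saline 1 was called higher and 4 lower, beside 8.23% and 10.3%.

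**Figure D4:**
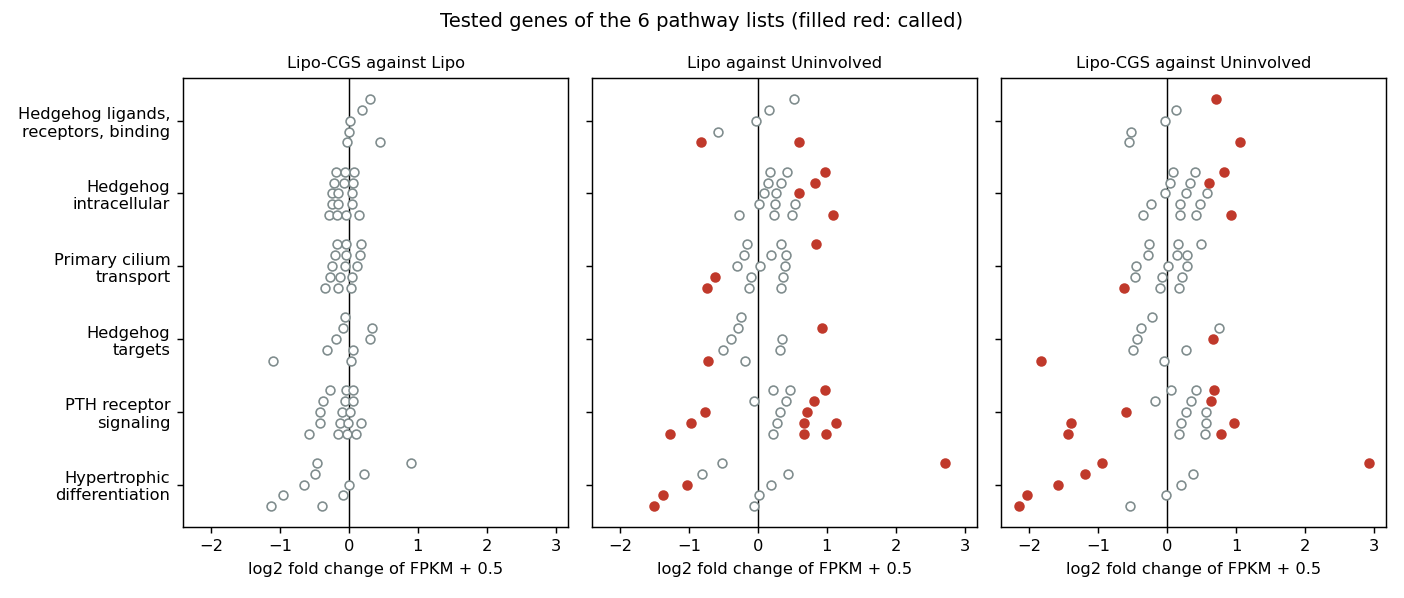
Log2 fold change of FPKM + 0.5 for every tested gene of the 6 pathway lists in 3 comparisons, with called genes in filled red. No symbol is filled in Lipo-CGS against Lipo, and the hypertrophic differentiation genes spread widest, from -2.15 for Ibsp to 2.93 for Mmp13 in Lipo-CGS against Uninvolved.

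The tested genes most like each member over the 12 libraries were found by Pearson correlation of log2(FPKM + 0.5), as a description, since the libraries fall into groups that most genes share. For Gas1 these were Sema3b (r = 0.98), Grik5 (0.97), Ctsa (0.97), Orai2 (0.97) and Slc27a1 (0.97). For Gli3 they were Limch1, Neo1, Man2a2, Deptor and Lrp6, each at 0.99, and for Gli2 they were Tldc1 and Xpc, at 0.98 each, with Arid1b, Kif13b and Zbtb16 at 0.97 each. The likest genes to Pth1r were Zfp69 (0.97), Kdm5b (0.95) and Card9 (0.95), and to Smo Cdc42ep3 (0.94) and Suox (0.94). Ptch1 had 1 close match, Rapgef2 (0.96), followed by Dusp4 (0.83), and no other member was among the 5 likest genes of any.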

How the data were processed

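Knee chondrocyte RNA was sequenced by the authors as single reads of 50 bp, aligned with STAR to Rnor_6.0 and counted with featureCounts by the methods, while the submitters' processing notes name HTSeq. The authors deposited FPKM values per gene symbol, rounded to 2 decimals. The step from reads to FPKM and the use of strand in counting are not given in the sources used here, and the depth behind each value is unknown. From the FPKM steps of 156 weakly expressed genes, relative depth was 0.841 to 1.14.

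Columns were assigned by name. Genes that reached 1 FPKM in 3 or more of 12 libraries were fitted as log2(FPKM + 0.5) in R 4.3.3 by limma 3.58.1 and statmod 1.5.0, with group means, a trend and all 4 groups in 1 model. P-values were adjusted by Benjamini-Hochberg over 11373 genes and 6 comparisons were made. The DESeq2 test of the methods needs counts and was not run. The procedure was tested on simulated data. Whether replicate numbers pair libraries across groups is not given in the sources used here, and the main model did not pair them.

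Members and lists were chosen with earlier results of these data known. Members are named with all values, and list genes where called in Lipo-CGS against Lipo or in either liposome group against Uninvolved, or as ligands, receptors, co-receptors or textbook targets. Of the list genes 4 had no row. Alternatives were pseudocounts, filters, median-of-ratios scaling, a fit of the compared groups only, a replicate block, library weights (arrayWeights), other thresholds and leaving out each library. Promoters came from RefSeq (GRCr8) for 5 of the 9 genes. Python 3.11.15 with matplotlib 3.10.9 made the figures.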

Additional observations from a re-analysis of the deposited data

How the results depend on the processing

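The count of members called was 3 in Lipo-CGS against Uninvolved and 0 in Saline against Uninvolved under every setting tried, and 3 in Lipo-CGS against Saline except for 4, with Pth1r, when only the adjusted p was used. In Lipo-CGS against Lipo the count was 1 (Gas1) with library weights and 0 to 1 when each library was left out in turn. In Lipo against Uninvolved it ran from 1 to 3, and in Lipo against Saline from 1 to 2, when each library was left out, and in Lipo against Saline it was also 1 with a pseudocount of 1 and 1 with library weights. Same-numbered libraries of different groups deviated from their group means with correlations of -0.22 to 0.20. With 3 libraries behind each mean, such values cannot decide whether the numbers mark shared rats or days. With the replicate block the counts were 0 in Lipo-CGS against Lipo, 2 in Lipo against Uninvolved, 3 in Lipo-CGS against Uninvolved, 0 in Saline against Uninvolved, 2 in Lipo against Saline and 3 in Lipo-CGS against Saline. Of the calls named, the replicate block ended only that of Ccnd1 in Lipo against Uninvolved (-0.73, limma, adjusted p = 0.0501). Of 756 member values over 36 differences and 21 settings, 22 changed sign, none of them called. When each library was left out, sign changes occurred in Lipo-CGS against Lipo for Gli3 (-0.30 to 0.0805) and Pth1r (-0.0334 to 0.17), in Lipo against Uninvolved for Ptch1 (-0.0668 to 0.0876) and Smo (-0.14 to 0.15), in Saline against Uninvolved for Ptch1 (-0.29 to 0.0289), Smo (-0.26 to 0.0258), Gli2 (-0.0273 to 0.15), Pth1r (-0.17 to 0.10) and Cdon (-0.0703 to 0.26), in Lipo against Saline for Ptch1 (-0.0278 to 0.29) and Smo (-0.0153 to 0.28), and in Lipo-CGS against Saline for Ptch1 (-0.27 to 0.0493). Library weights turned Ptch1 to 0.11 and Pth1r to 0.0397 in Saline against Uninvolved and Ptch1 to -0.0578 in Lipo against Saline. The cause was not tested. Median-of-ratios scaling kept the median of all genes between -0.01 and 0.02. Read counts are unknown, so levels under 1 FPKM, those of Ihh, Gli1 and Hhip among them, have no counting interval.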
